A study of Mus musculus with 4 samples.

Results

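The genes described here are 10 disallowed genes with roles in growth signalling or tissue structure: Pdgfra, Fgf1, Igfbp4, Cxcl12, Tgm2, Mylk, Itih5, Ndrg2, Gucy1a1 and Abca8a. The genes were chosen with earlier results of these data known, so their shares set beside those of all regions are not independent of that choice. Their methylated regions were then taken by position alone. Peaks of the 4 libraries were joined wherever they overlapped by at least 1 bp, and a region belonged to a gene if it touched the gene body or the 2 kb before its start. This gave 82 regions of the 186169 in the genome. A peak was called in every library at 41 of the 82, and only these can be compared by their tags. Methylated DNA was captured from islets of mice 8 weeks old by an antibody that binds methylated cytosine, and then sequenced (MeDIP-seq), in 2 libraries per genotype. WT mice carried floxed Raptor alleles (Raptor lox/lox) without Cre, and βRapKO mice carried the same floxed alleles and RipCre, both on a background labelled C57BL/6. RipCre is Cre recombinase under the rat insulin promoter, which is active in beta cells, and by the study's methods this Cre line came from a mixed C57BL/6J and 129/SvJ stock. WT mice were littermates, and only βRapKO carries Cre, so that loss of Raptor and Cre itself cannot be told apart. Islets were picked by hand and also hold other endocrine, vascular and stromal cells. A region's tags are the sum over all of them, so that fewer cells of a type and less methylated DNA per cell cannot be told apart. How many mice gave each library is not stated, and p-values measure only the spread between these libraries.

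Disallowed genes are expressed in most tissues but kept nearly silent in mature beta cells. Raptor is the scaffold subunit of mTORC1, the kinase complex that links nutrients and growth factors to protein synthesis. Methylation in mammals falls mostly on CpG sites. It is usually low over CpG-rich promoters in use and common within the bodies of genes. The comparison asks whether these genes carried less methylated DNA in islets without beta cell Raptor. Each region was measured in 3 ways. CPM (counts-per-million) is its tags over all tags kept after duplicates were removed. Tags per kb is that CPM divided by the length of the peaks that hold the tags, and is given in CPM per kb. Fold enrichment is the peak caller's ratio of the peak to its local background. Where a library had several peaks in a region, the highest of their ratios was taken. A wider peak with unchanged tags therefore keeps its CPM and loses tags per kb.

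None of the regions of these genes passed the main tests, and those without a peak in every library could not be tested. Sequences are shown for some regions whose values or peak calls were unlike between genotypes, because CpG sites are what the assay reads. Each is the window of 200 bases with the most CpG sites in its region outside annotated UTRs. It was taken from the RefSeq sequence of GRCm38 (mm10) and written 5′ to 3′ on the strand of the gene, with every CpG in capitals. The regions of a gene are numbered from its 5′ to its 3′ end. The first 5 windows belong to regions with a peak in every library and a drop of more than 1.5-fold in tags or tags per kb in βRapKO. Fgf1 region 1, the other region with such a drop, is described by its values alone. The Ndrg2 window lies in a peak called in every library, which had 57 and 50 tags in WT and 52 and 79 in βRapKO. The drop in tags of Ndrg2 region 1 rested on a further WT peak outside that window.
Abca8a region 4, chr11:110029564-110029763, minus strand: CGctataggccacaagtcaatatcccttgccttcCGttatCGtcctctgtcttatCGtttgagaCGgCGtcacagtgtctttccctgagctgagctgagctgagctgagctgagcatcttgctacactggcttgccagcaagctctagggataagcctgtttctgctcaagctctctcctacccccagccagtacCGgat
Ndrg2 region 1, chr14:51911279-51911478, minus strand: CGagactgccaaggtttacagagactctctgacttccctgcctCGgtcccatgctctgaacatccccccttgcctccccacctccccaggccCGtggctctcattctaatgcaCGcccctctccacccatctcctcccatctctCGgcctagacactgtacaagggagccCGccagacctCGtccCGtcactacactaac
Tgm2 region 2, chr2:158132399-158132598, minus strand: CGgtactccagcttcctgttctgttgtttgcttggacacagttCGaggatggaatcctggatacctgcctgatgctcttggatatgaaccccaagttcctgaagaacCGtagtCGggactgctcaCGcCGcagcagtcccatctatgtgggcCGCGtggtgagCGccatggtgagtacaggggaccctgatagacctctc
Itih5 region 9, chr2:10238715-10238914, plus strand: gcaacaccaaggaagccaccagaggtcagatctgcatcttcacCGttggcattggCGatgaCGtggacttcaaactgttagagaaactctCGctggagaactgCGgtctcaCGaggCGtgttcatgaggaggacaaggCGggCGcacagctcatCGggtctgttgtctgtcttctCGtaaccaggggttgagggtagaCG
Gucy1a1 region 1, chr3:82143941-82144140, minus strand: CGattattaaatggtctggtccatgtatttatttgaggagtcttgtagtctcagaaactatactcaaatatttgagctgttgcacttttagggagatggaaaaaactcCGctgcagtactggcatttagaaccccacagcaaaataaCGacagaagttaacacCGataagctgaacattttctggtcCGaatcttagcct
The next window comes from the only region that lay within 500 bp of the annotated start of its gene.
Igfbp4 region 1, chr11:99041600-99041799, plus strand: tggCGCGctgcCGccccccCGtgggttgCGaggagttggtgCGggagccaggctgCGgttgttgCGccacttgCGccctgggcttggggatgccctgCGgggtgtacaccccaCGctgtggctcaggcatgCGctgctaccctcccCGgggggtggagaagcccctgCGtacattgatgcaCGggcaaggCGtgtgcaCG
The following windows come from regions called in WT only, that is in each WT library and no βRapKO library. They are 4 of the 9 such regions. Fgf1 region 5, Igfbp4 region 3, Mylk regions 5 and 10 and Itih5 region 6 are described by their values alone.
Mylk region 6, chr16:34803127-34803326, plus strand: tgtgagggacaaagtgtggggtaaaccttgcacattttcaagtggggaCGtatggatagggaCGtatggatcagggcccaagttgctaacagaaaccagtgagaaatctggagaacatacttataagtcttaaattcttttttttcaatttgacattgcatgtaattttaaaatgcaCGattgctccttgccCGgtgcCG
Mylk region 22, chr16:34956369-34956568, plus strand: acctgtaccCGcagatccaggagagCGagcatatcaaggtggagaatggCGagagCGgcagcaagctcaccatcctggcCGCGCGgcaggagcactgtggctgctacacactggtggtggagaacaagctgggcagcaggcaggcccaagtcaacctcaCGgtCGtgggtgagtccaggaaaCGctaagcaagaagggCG
Itih5 region 5, chr2:10189644-10189843, plus strand: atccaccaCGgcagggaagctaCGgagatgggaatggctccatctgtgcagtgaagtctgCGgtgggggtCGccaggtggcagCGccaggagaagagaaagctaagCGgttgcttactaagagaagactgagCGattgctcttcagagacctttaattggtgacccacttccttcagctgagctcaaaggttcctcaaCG
Ndrg2 region 2, chr14:51906143-51906342, minus strand: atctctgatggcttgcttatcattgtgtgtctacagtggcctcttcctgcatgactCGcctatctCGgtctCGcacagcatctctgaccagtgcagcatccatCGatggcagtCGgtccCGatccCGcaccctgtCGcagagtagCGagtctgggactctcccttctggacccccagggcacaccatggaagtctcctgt
The last belongs to the only region called in βRapKO only, that is in each βRapKO library and no WT library.
Itih5 region 1, chr2:10157453-10157652, plus strand: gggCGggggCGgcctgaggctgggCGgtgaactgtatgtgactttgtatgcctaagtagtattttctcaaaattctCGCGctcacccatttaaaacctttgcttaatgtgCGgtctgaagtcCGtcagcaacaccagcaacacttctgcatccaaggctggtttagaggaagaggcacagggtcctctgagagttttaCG
CpG sites in these windows ranged from 5 in Gucy1a1 region 1 and Mylk region 6 to 17 in Igfbp4 region 1. Over whole regions, the 82 held a median of 1.68 CpG per 100 bp, against 1.6 over all 186169 regions. Repeats covered a median of 14.4% of their bases, against 24.4% over all regions.

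Depth was similar in the libraries. They kept 25585533 to 31330751 tags, and 117638 to 151093 peaks were called per library, the highest number in WT replicate 2, the deepest. WT replicate 2 also had the shortest estimated fragment, 238 bp against 269 to 283 bp in the others, and the lowest median peak length, 938 bp against 1059 to 1150 bp. Across all 75052 regions with a peak in every library, the median log2 ratio of βRapKO to WT was −0.06 for CPM and −0.17 for tags per kb. Values of the 10 genes are read against these shifts. At Rptor, the targeted gene, 13 of 36 regions had a peak in every library, 9 of them with a lower mean CPM in βRapKO, and the smallest adjusted p by edgeR was 0.864. MeDIP tags do not show the floxed deletion, so Rptor does not check the labels. Starts of all 7 beta cell marker genes, all 3 other endocrine, all 4 acinar and all 4 mesenchymal markers had no peak in any library, and so had 2 of 3 duct (Sox9, Cftr) and 2 of 3 endothelial markers (Pecam1, Kdr). Krt19 (duct) and Cdh5 (endothelial) had a peak at the start in every library. Methylation at starts does not measure how many cells of a type were present.

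Fewer peaks were called on the 10 genes in βRapKO than in WT. WT replicates 1 and 2 had a peak at 64 and 71 of the 82 regions, and βRapKO replicates 1 and 2 had one at 50 and 52. As shares, these were 78.0% and 86.6% in WT and 61.0% and 63.4% in βRapKO, against 64.0%, 78.9%, 62.3% and 63.6% over all regions. Hence WT libraries called these genes more often than the average region, and βRapKO libraries about as often. Of the 82 regions, 9 were called in WT only, in Fgf1, Igfbp4, Mylk, Itih5 and Ndrg2 (11%), against 4.16% of all regions. The reverse was found at 1, in Itih5, against 1.58%. Peaks in every library were found at 41 (50.0%), against 40.3%. Of the other 31 regions, 10 had a peak in both WT libraries and 1 βRapKO library (12.2% of the 82, against 9.6% of all regions), 2 in 1 library of each genotype (2.44%, against 10.9%) and 19 in a single library (23.2%, against 27.5%). None had a peak in both βRapKO libraries and 1 WT library, against 5.96%. A library without a peak has no count in the files, so these regions have no fold change and no test. The peak caller's score is the negative log10 of its p, times a factor, so that its cutoff of 1e-05 is a score of 50. With peaks of a score of at least 100 alone, the genes had 45 regions. Of these, 8 (17.8%) were called in WT only, against 5.17% of all regions in that setting, and 0 in βRapKO only, against 1.22%. These are mostly not the 9 regions above, of which only Itih5 region 5 had a score of at least 100 in both WT libraries. The rest had a βRapKO peak of a lower score, such as Tgm2 region 2, with 172 and 177 in WT and 67.6 and 81.2 in βRapKO.

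**Figure D1:**
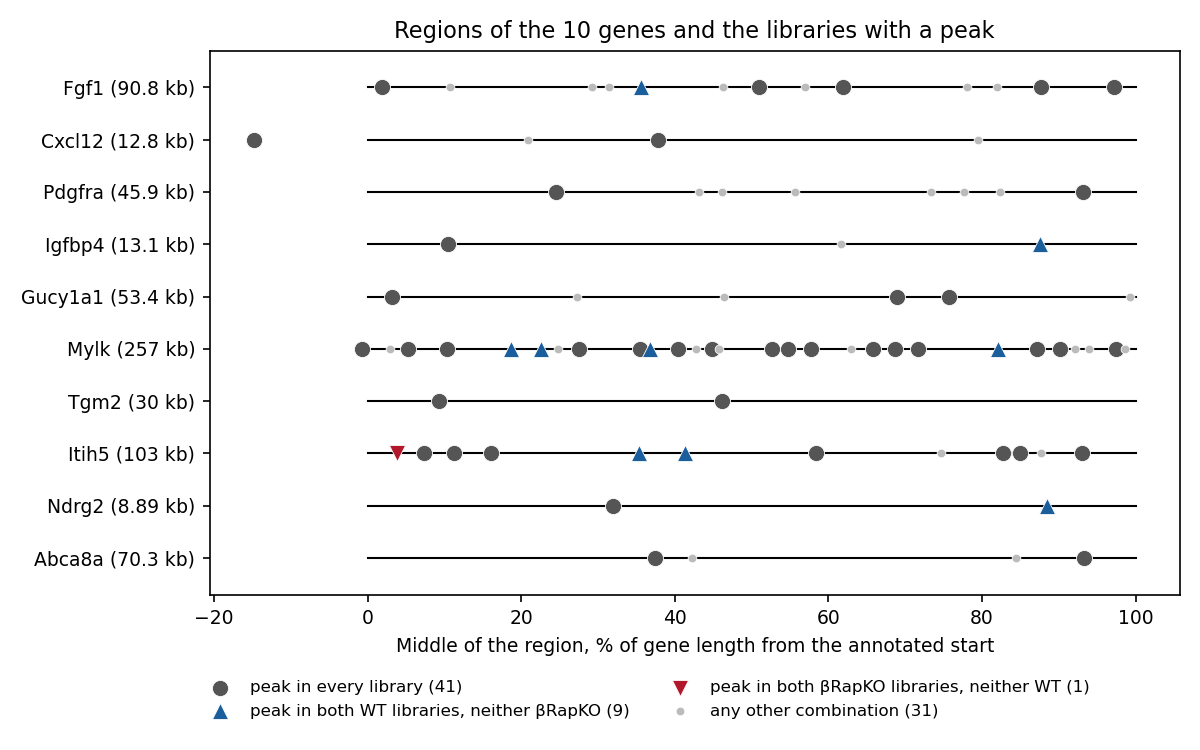
Position of the 82 regions along the 10 genes, from the annotated start (0%) to the end (100%), with gene length beside each name. Grey circles had a peak in every library (41), blue triangles in WT only (9), the red triangle in βRapKO only (1) and small dots in other combinations (31), and the WT-only regions lie in Fgf1, Igfbp4, Mylk, Itih5 and Ndrg2.

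The tags of the 10 genes divide unevenly between these classes. In the 41 regions with a peak in every library, WT replicates held 120 and 121 CPM in total and βRapKO replicates 104 and 115. In the other 41 regions, WT replicates held 42.9 and 55.2 CPM and βRapKO replicates 12.9 and 19.2. Most of the difference in the summed tags thus lay where at least 1 library had no peak, and such a library adds nothing to the sum even if tags were there. Over the whole genome, regions without a peak in every library held 75016 and 111740 CPM in WT and 65151 and 70892 in βRapKO. Peaks on the 10 genes covered 80.7 and 83.2 kb in WT and 64.2 and 72.7 kb in βRapKO, at 2.02 and 2.12 CPM per kb in WT and 1.82 and 1.85 in βRapKO.

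None of the 41 regions passed the test on any of the 3 measures. All 75052 regions were fitted together with edgeR's quasi-likelihood test and Benjamini-Hochberg adjustment, and called where the FDR was under 0.05 and the fold-change over 1.5. On tags, 0.0% of all regions and none of the 41 passed, and adjusted p of the 41 ran from 0.823 to 0.998. At an unadjusted p under 0.05, 4 of the 41 (9.76%) were lower, against 3.93% of all regions, and none was higher, against 1.88%. With limma on log2(CPM + 0.5) the counts were also 4 and 0, against 4.01% and 1.89% of all regions, and with DESeq2 0 and 0, against 0.486% and 0.797%. On tags per kb, 0.0% of all regions and none of the 41 passed, with adjusted p from 0.172 to 0.996. At an unadjusted p under 0.05, 12 (29.3%) were lower, against 12.7%, and 0 higher, against 0.344%. On fold enrichment, tested with limma, 0.0% of all regions and none passed as well, with 6 lower (14.6%), against 9.94%, and 0 higher, against 0.421%.

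Most of the 41 regions had lower means in βRapKO. In CPM the mean was lower at 27 of 41 (65.9%), against 61.0% of all regions with a peak in every library. βRapKO lay below WT without overlap at 16 (39.0%), against 25.3%, and above both at 1, Mylk region 15, against 11.6%. More than 1.5-fold lower were 2, Abca8a region 4 and Ndrg2 region 1, against 1.77%, and more than 1.5-fold higher was none, against 1.29%. The library size matters for this count. When libraries were scaled by their tags in peaks, 18 of the 41 were lower (43.9%, against 31.4% of all regions) and 23 higher, and with TMM 25 (61.0%, against 49.4%) and 16, while the median of all 75052 regions moved to 0.10 and 0.00 on the log2 scale.

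By tags per kb the mean was lower at 37 of 41 (90.2%), against 79.6%. Groups did not overlap at 24 (58.5%), all of them lower in βRapKO, against 41.1%, and none was higher, against 4.54%. More than 1.5-fold lower were Fgf1 region 1, Tgm2 region 2, Itih5 region 9, Gucy1a1 region 1 and Abca8a region 4, against 4.02%, and more than 1.5-fold higher was none, against 0.12%. Both βRapKO libraries had the longer peaks at 15 (36.6%), against 31.0%, and the shorter at 2, against 6.86%. In fold enrichment the mean was lower at 29 of 41 (70.7%), a smaller share than the 77.2% of all regions. βRapKO was below WT without overlap at 22 (53.7%), against 37.4%. It was above at 3 (7.32%), Fgf1 region 7, Cxcl12 region 3 and Mylk region 21, against 5.23%. On all 3 measures at once, βRapKO lay below WT without overlap at 9 (22.0%), against 10.9%, and these lay in Fgf1, Igfbp4, Cxcl12, Itih5, Ndrg2, Gucy1a1 and Abca8a. When libraries were scaled by their tags in peaks, 24 of the 41 were lower in tags per kb (58.5%, against 50.2% of all regions) and 17 higher. Without WT replicate 2, the library with the shortest peaks, 34 of the 41 were lower in tags per kb (82.9%, against 70.7% of all regions) and 31 in tags (75.6%, against 60.5%).

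**Figure D2:**
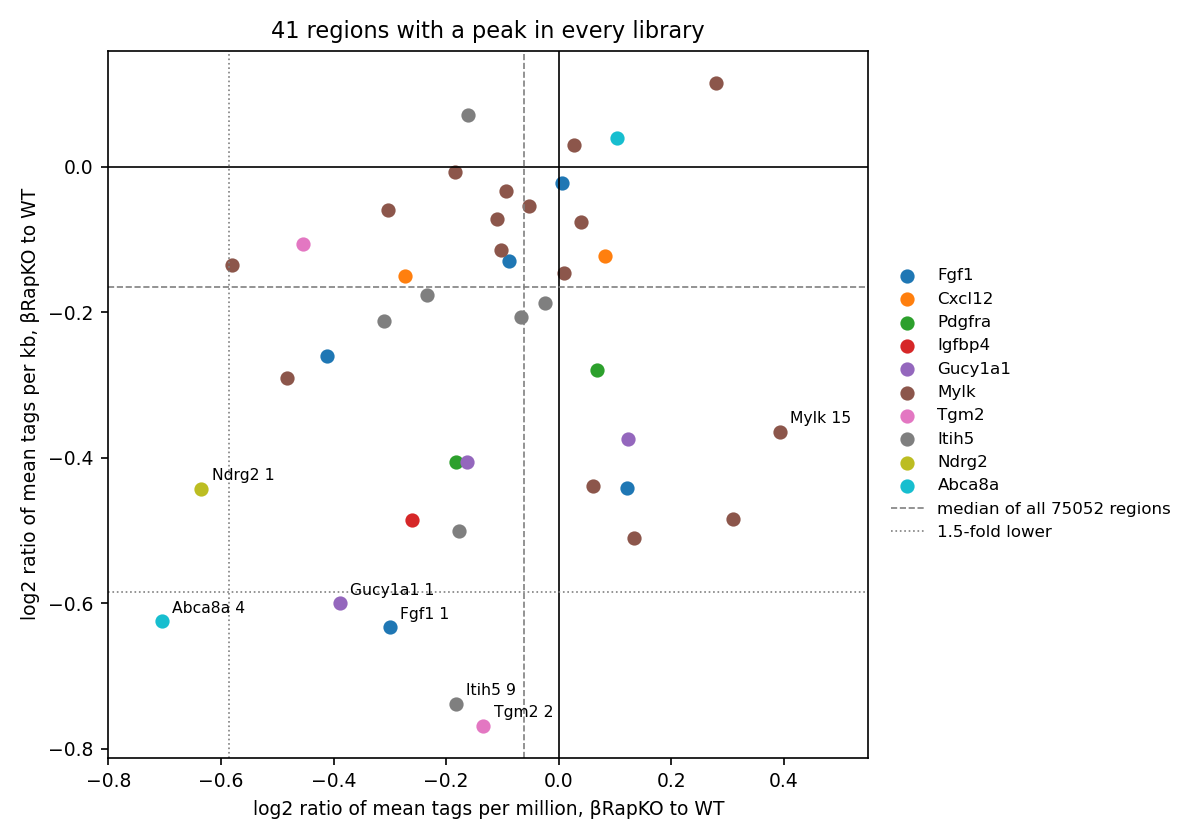
Log2 ratio of mean CPM (x axis) and of mean tags per kb (y axis), βRapKO to WT, for the 41 regions with a peak in every library, coloured by gene. Dashed lines mark the medians of all 75052 regions (−0.06 and −0.17), dotted lines a 1.5-fold lower value, and Abca8a region 4 alone lies past both dotted lines.

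Of the 82 regions, 38 touched an exon of the principal transcript, 37 lay in introns and 7 lay outside that transcript. Those over exons had a median log2 ratio of −0.16 in CPM and −0.28 in tags per kb over 23 regions with a peak in every library, against −0.02 and −0.15 over 13 in introns. Exonic regions also held more CpG, a median of 1.83 per 100 bp against 1.46. The difference between the classes was not tested. Among the genes, only Igfbp4 had a region within 500 bp of its annotated start, or 1 of 10, where 12.9% of 21911 protein-coding genes had one. By the start of the principal transcript, 3 of 10 had such a region, against 12.6% of genes, since Fgf1 region 2 and Gucy1a1 region 1 also lay within 500 bp of it.

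Among the growth signals, Fgf1 encodes a fibroblast growth factor that binds all FGF receptors. It lies on chromosome 18 from 38838673 to 38929472, on the minus strand, and all of its 13 regions also lie within Arhgap26 as annotated, so their tags cannot be given to 1 gene. Most tags were found in region 9, in intron 1, where CPM was 3.91 and 3.70 in WT and 3.39 and 4.25 in βRapKO. WT lay between the βRapKO libraries there. Its fitted log2 fold change was 0.01 (SE 0.18, adjusted p = 0.998) in tags and −0.02 (SE 0.17, adjusted p = 0.968) in tags per kb. Region 1, upstream of the principal transcript from 38927428 to 38928053, had a CPM of 1.06 and 1.05 in WT and 0.821 and 0.891 in βRapKO. Its peaks were 414 and 418 bp in WT and 536 and 513 bp in βRapKO, so that CPM per kb was 2.55 and 2.52 in WT and 1.53 and 1.74 in βRapKO. Groups did not overlap on either scale, and the log2 fold change was −0.30 (SE 0.18, adjusted p = 0.890) in tags and −0.63 (SE 0.21, adjusted p = 0.317) in tags per kb. Region 2, within 500 bp of the start of the principal transcript, had 70 and 67 tags in WT. There βRapKO replicate 2 had 79 tags and βRapKO replicate 1 had no peak. Region 5, in intron 1 with its middle 21.65 kb after the start of the principal transcript, had 46 and 63 tags in WT and no peak in βRapKO. Region 7, also in intron 1, is 1 of 3 regions with a higher fold enrichment in both βRapKO libraries, 8.66 and 9.94 in WT and 10.7 and 10.4 in βRapKO. Its CPM per kb was lower, 2.51 and 3.0 in WT and 1.77 and 2.29 in βRapKO.

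Cxcl12 encodes the chemokine that binds CXCR4 and guides migrating cells. The gene spans 12.8 kb of chromosome 6 (117168535 to 117181367) and had 4 regions. Over exon 3, region 3 held 48 and 73 tags in WT and 62 and 68 in βRapKO, a CPM of 1.88 and 2.33 in WT and 2.12 and 2.33 in βRapKO. The genotypes overlapped in CPM, with a log2 fold change of 0.07 (SE 0.21, adjusted p = 0.970) in tags. CPM per kb did not overlap, at 1.80 and 1.95 in WT and 1.66 and 1.78 in βRapKO, with a log2 fold change of −0.13 (SE 0.20, adjusted p = 0.802). Region 1, before the start, had a CPM of 1.52 and 1.37 in WT and 1.23 and 1.17 in βRapKO. Those groups did not overlap, with a log2 fold change of −0.27 (SE 0.18, adjusted p = 0.885). No Cxcl12 region had a peak in both libraries of 1 genotype and neither of the other. Region 4, over the last exon, had 46 and 84 tags in WT, 87 in βRapKO replicate 2 and no peak in βRapKO replicate 1.

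Pdgfra, a receptor for PDGF ligands on mesenchymal cells, lies on chromosome 5 from 75152292 to 75198215. Region 1, over exon 3, held the most tags, with a CPM of 3.99 and 3.48 in WT and 3.39 and 3.19 in βRapKO. βRapKO was below WT without overlap, with a log2 fold change of −0.18 (SE 0.17, adjusted p = 0.896). Scaled by tags in peaks, the fold change in tags was −0.0191. CPM per kb was 2.75 and 3.33 in WT and 2.73 and 1.86 in βRapKO, where βRapKO replicate 1 was just under WT replicate 1 and replicate 2 well below (log2 fold change −0.42 (SE 0.20, adjusted p = 0.397)). Without βRapKO replicate 1 that fold change was −0.70, and without βRapKO replicate 2 it was −0.15. Region 8, over the last exon, carried the densest CpG of the 82 regions, 2.88 per 100 bp. Its CPM overlapped, at 1.41 and 1.53 in WT and 1.44 and 1.65 in βRapKO, and its CPM per kb did not, at 1.64 and 1.75 in WT and 1.44 and 1.35 in βRapKO. Of the 6 other Pdgfra regions, 5 had a peak in a single library. Summed over the gene, CPM was 10 and 9.83 in WT and 6.19 and 6.55 in βRapKO, whereas the 2 regions with a peak in every library held 5.39 and 5.01 in WT and 4.83 and 4.83 in βRapKO.

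Igfbp4 encodes an insulin-like growth factor binding protein that holds IGF away from its receptor. On chromosome 11, from 99041244 to 99054392, it had 3 regions. Region 1 (99041559 to 99043692) covers part of exon 1 and reaches to within 500 bp of the gene start. Its CPM was 5.24 and 5.43 in WT and 4.04 and 4.87 in βRapKO. CPM per kb was 3.04 and 3.12 in WT and 1.89 and 2.51 in βRapKO. Both βRapKO libraries were lower on both scales and in fold enrichment, with a log2 fold change of −0.26 (SE 0.16, adjusted p = 0.865) in tags and −0.49 (SE 0.16, adjusted p = 0.277) in tags per kb. Without βRapKO replicate 1 these were −0.13 and −0.30, and without βRapKO replicate 2 the value in tags was −0.40. At the other end of the gene, region 3 over exon 4 had the most tags of any region called in WT only, 114 and 131 over peaks of 2521 and 2248 bp. Its score was 80.2 and 91.9, below the stricter limit of 100. Region 2, over exon 3, had a peak in βRapKO replicate 1 alone, with 46 tags.

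**Figure D3:**
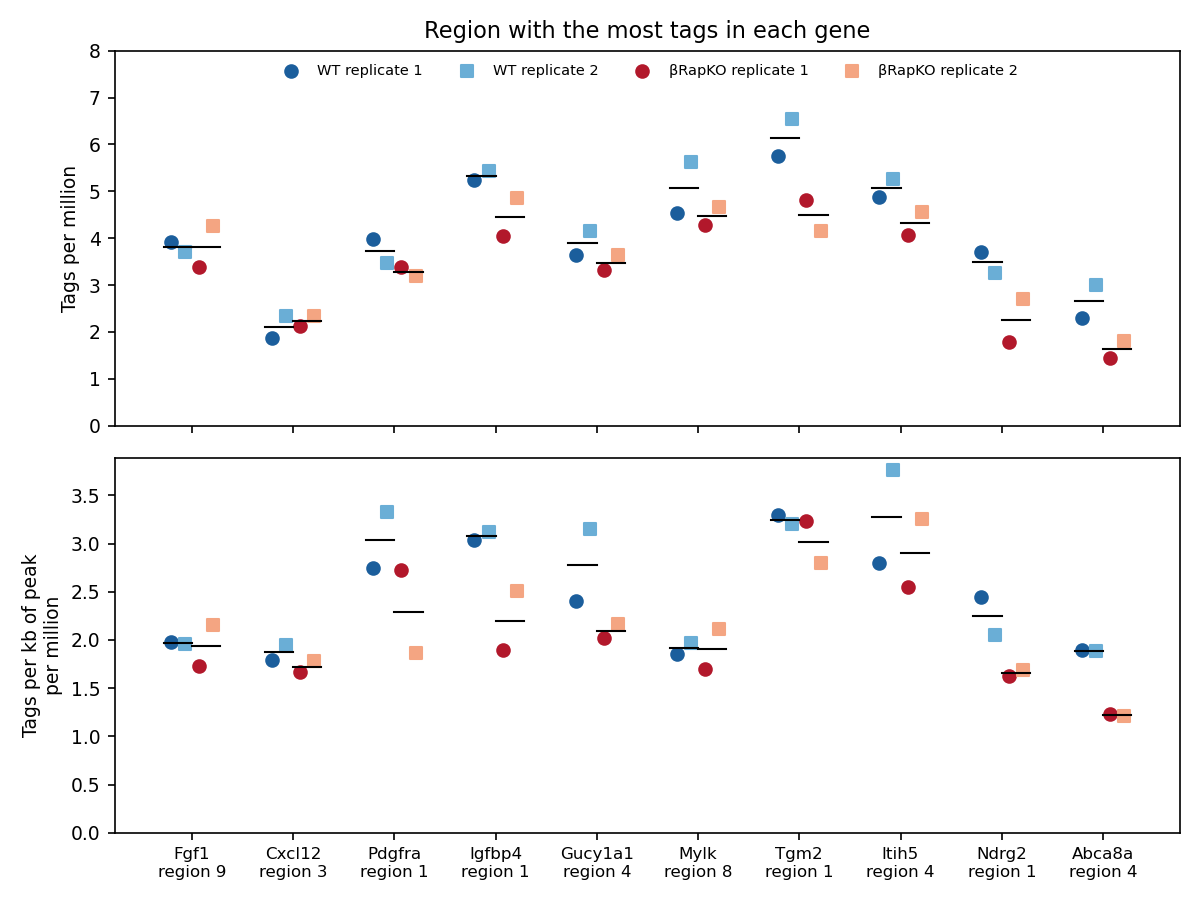
CPM (top) and CPM per kb of peak (bottom) in the region with the most tags of each gene, with 1 point per library and a black line at the mean of the 2 libraries of a genotype. In CPM both βRapKO points lie below both WT points in Pdgfra, Igfbp4, Gucy1a1, Tgm2, Itih5, Ndrg2 and Abca8a, and they overlap WT in Fgf1, Cxcl12 and Mylk.

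Gucy1a1 encodes the alpha subunit of soluble guanylate cyclase, the nitric oxide receptor that makes cGMP and relaxes smooth muscle. It spans 53.4 kb of chromosome 3 (82092427 to 82145789, minus strand). Region 1, in intron 1 with its middle 0.98 kb after the start of the principal transcript, had 61 and 56 tags in WT and 47 and 46 in βRapKO. In CPM this was 2.38 and 1.79 in WT and 1.61 and 1.58 in βRapKO, and in CPM per kb 2.94 and 2.25 in WT and 1.88 and 1.55 in βRapKO. Groups did not overlap on either scale, and the log2 fold change was −0.38 (SE 0.22, adjusted p = 0.861) in tags and −0.60 (SE 0.22, adjusted p = 0.313) in tags per kb. In tags it was −0.17 without WT replicate 1 and −0.58 without WT replicate 2. Region 4, over exon 5 and with the most tags, had a CPM of 3.63 and 4.15 in WT and 3.32 and 3.63 in βRapKO, where βRapKO replicate 2 was just under WT replicate 1. Its CPM per kb was 2.40 and 3.16 in WT and 2.02 and 2.17 in βRapKO, also without overlap, and the log2 fold change was −0.17 (SE 0.17, adjusted p = 0.904) in tags and −0.41 (SE 0.18, adjusted p = 0.361) in tags per kb, the latter −0.20 without WT replicate 2. Region 5, over exon 6, overlapped in CPM, at 3.87 and 2.04 in WT and 3.08 and 3.36 in βRapKO. There WT replicate 2 had 64 tags over 875 bp, while the other libraries had 90 to 99 tags over peaks of 1938 to 1974 bp. In summed CPM the genotypes overlapped, at 12.2 and 9.48 in WT and 8.01 and 11.1 in βRapKO.

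Mylk encodes myosin light chain kinase, which starts contraction in smooth muscle. It is the longest of the genes, 257 kb of chromosome 16 (34745210 to 35002420), and held 28 of the 82 regions. Of its 16 regions with a peak in every library, mean CPM was lower in βRapKO at 8, against 61.0% of all regions, and tags per kb at 14, against 79.6%. Their median log2 ratio in CPM was −0.02. Region 8, over exon 2 and with the most tags, had a CPM of 4.53 and 5.62 in WT and 4.28 and 4.66 in βRapKO. CPM per kb was 1.86 and 1.97 in WT and 1.70 and 2.11 in βRapKO. The genotypes overlapped on both scales, with a log2 fold change of −0.19 (SE 0.17, adjusted p = 0.894) in tags and −0.02 (SE 0.16, adjusted p = 0.974) in tags per kb. The lowest ratio in CPM was at region 11 in intron 2, 4.53 and 5.04 in WT and 2.50 and 3.91 in βRapKO. Its CPM per kb overlapped, at 1.90 and 1.84 in WT and 1.92 and 1.49 in βRapKO. The highest was at region 15, over exons 8 to 9, with 94 and 90 tags in WT and 108 and 143 in βRapKO. Its peaks were 1726 and 1277 bp in WT and 2277 and 2755 bp in βRapKO, so that CPM per kb was lower in βRapKO, 2.13 and 2.25 in WT and 1.62 and 1.78 in βRapKO.

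The 4 Mylk regions called in WT only lay in introns with 1 exception. Region 5 in intron 1 had 30 tags in each WT library, and region 6 in the same intron had 78 and 130. Region 10 in intron 2 had 35 and 47 tags, and region 22 over exon 21 had 47 and 57. Region 7, next to region 6, had 97 and 103 tags in the WT libraries, 52 in βRapKO replicate 2 and no peak in βRapKO replicate 1. The middles of regions 5 to 7 lie from 8.43 to 24.11 kb after the start of the principal transcript. Region 22 overlaps the antisense gene E130310I04Rik as annotated. In the 4 regions called in WT only, the score ran from 51.5 to 97.

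**Figure D4:**
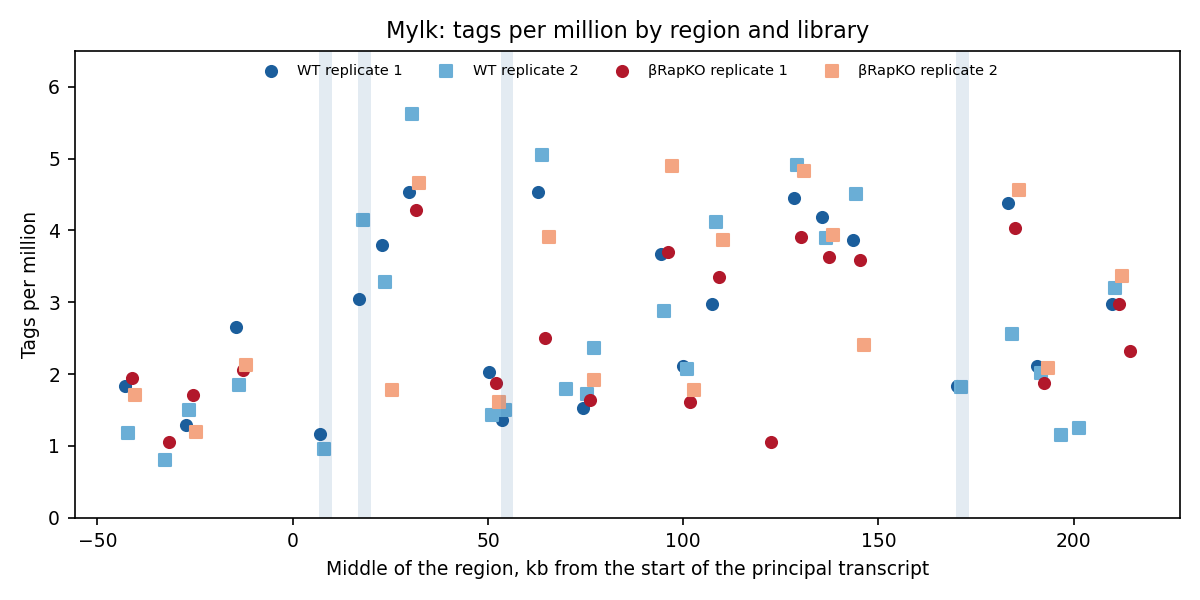
CPM of each Mylk region by library, against the distance of the region's middle from the start of the principal transcript in kb; points of a library are drawn slightly aside, and no point is drawn where a library had no peak. Shaded bands mark the 4 regions called in WT only, and the highest βRapKO point is region 15 at 95.65 kb, with 4.90 CPM.

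Tgm2 encodes transglutaminase 2, which crosslinks proteins of the extracellular matrix. On chromosome 2 (158116402 to 158146436, minus strand), it had 2 regions, both with a peak in every library. Region 1, over exon 2, had a CPM of 5.75 and 6.54 in WT and 4.83 and 4.15 in βRapKO, a difference without overlap, with a log2 fold change of −0.46 (SE 0.16, adjusted p = 0.849). Its peaks were shorter in βRapKO, at 1744 and 2046 bp in WT and 1494 and 1480 bp in βRapKO, and CPM per kb overlapped, at 3.29 and 3.20 in WT and 3.23 and 2.80 in βRapKO. In region 2, over exons 5 to 6 from 158130964 to 158134236, the difference was on the other scale. CPM overlapped, at 4.69 and 5.23 in WT and 3.63 and 5.42 in βRapKO. Its peaks were 1601 and 1757 bp in WT and 2011 and 3252 bp in βRapKO. CPM per kb was 2.93 and 2.98 in WT and 1.80 and 1.67 in βRapKO, the lowest ratio of the 41 regions on this scale. The log2 fold change was −0.78 (SE 0.15, adjusted p = 0.172) by edgeR, with an unadjusted p of 0.000167. In fold enrichment the region overlapped, at 5.88 and 5.56 in WT and 4.92 and 6.49 in βRapKO. It also overlaps Rprd1b as annotated.

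Itih5 encodes a heavy chain of the inter-alpha-trypsin inhibitor family, which binds hyaluronan in the matrix. Its 12 regions lie on chromosome 2 (10153571 to 10256529). Mean CPM was lower in βRapKO at all 7 regions with a peak in every library, against 61.0% of all regions. Tags per kb were lower at 6, all but region 10, against 79.6%. In CPM the log2 ratios of regions 3 and 7, −0.07 and −0.02, were near the median of all regions, −0.06. Region 4 in intron 2 had the most tags, with a CPM of 4.89 and 5.27 in WT and 4.07 and 4.56 in βRapKO and a log2 fold change of −0.24 (SE 0.16, adjusted p = 0.866). βRapKO was lower without overlap in CPM, and CPM per kb overlapped, at 2.80 and 3.76 in WT and 2.55 and 3.26 in βRapKO. Region 9, over exon 9, had 32 and 40 tags in WT and 33 and 32 in βRapKO, over peaks of 480 and 394 bp in WT and 565 and 728 bp in βRapKO. CPM per kb was 2.61 and 3.24 in WT and 2.0 and 1.51 in βRapKO. Its CPM was 1.25 and 1.28 in WT and 1.13 and 1.10 in βRapKO. Groups did not overlap on either scale or in fold enrichment, with a log2 fold change of −0.18 (SE 0.17, adjusted p = 0.922) in tags and −0.76 (SE 0.23, adjusted p = 0.254) in tags per kb. Itih5 was the only one of the genes with regions of both one-genotype kinds. Region 5 over exon 5 had 39 and 76 tags and region 6 in intron 5 had 35 and 30, in WT only. Region 1 in intron 1, with its middle 4.05 kb after the start, had 41 and 40 tags in βRapKO only. Its score was 61.7 and 56.1, while that of region 5 was 107 and 172.

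Ndrg2 encodes a stress-responsive protein linked to growth arrest. It is the shortest of the genes, 8.89 kb of chromosome 14 (51905271 to 51914158, minus strand), with 2 regions. Region 1, over exons 2 to 5 (51910084 to 51912538), held 95 and 102 tags in WT and 52 and 79 in βRapKO, a CPM of 3.71 and 3.26 in WT and 1.78 and 2.71 in βRapKO. Groups did not overlap in CPM, tags per kb or fold enrichment, and the log2 fold change was −0.63 (SE 0.24, adjusted p = 0.849) in tags and −0.43 (SE 0.18, adjusted p = 0.356) in tags per kb. In tags it was −0.36 without βRapKO replicate 1 and −0.96 without βRapKO replicate 2. The lower tag count rested on a further peak. WT libraries had 2 peaks here, and the one nearer the 3′ end of the gene, of 750 and 760 bp with 38 and 52 tags, was not called in βRapKO. Fold enrichment in WT is thus the higher of 2 peaks, against that of 1 peak in βRapKO. The peak called in all libraries had 57 and 50 tags in WT and 52 and 79 in βRapKO, and its fitted log2 fold change in tags was 0.24 when peaks were joined only if they overlapped by at least 50% of the shorter one. Tags per kb of this shared peak were still lower in βRapKO. They were 2.90 and 1.93 CPM per kb in WT and 1.63 and 1.68 in βRapKO, with a log2 fold change of −0.52 (adjusted p = 0.371). Region 2, over exons 13 to 15, had 46 and 52 tags in WT and no peak in βRapKO. Summed CPM was 5.51 and 4.92 in WT and 1.78 and 2.71 in βRapKO.

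Abca8a encodes a lipid transporter of the ABCA subfamily. On chromosome 11 (110025634 to 110095978, minus strand) it had 4 regions. Region 4, over exons 33 to 36 of 39 (110029457 to 110031178), held 59 and 94 tags in WT and 42 and 53 in βRapKO, a CPM of 2.31 and 3.0 in WT and 1.44 and 1.82 in βRapKO. CPM per kb was nearly equal within a genotype, at 1.90 and 1.88 in WT and 1.24 and 1.22 in βRapKO. Fold enrichment was 9.04 and 8.78 in WT and 4.76 and 4.76 in βRapKO. Of the 41 regions, this one alone was more than 1.5-fold lower in CPM and in tags per kb. Neither difference passed, with a log2 fold change of −0.71 (SE 0.23, adjusted p = 0.823) in tags and −0.62 (SE 0.20, adjusted p = 0.266) in tags per kb. By limma on fold enrichment the log2 fold change was −0.90 (SE 0.19, adjusted p = 0.403), which did not pass either. In tags it was −0.50 without WT replicate 2, −0.55 without βRapKO replicate 1 and −0.54 when scaled by tags in peaks, each less than 1.5-fold. It was −0.88 without WT replicate 1 and −0.65 with TMM. WT replicate 2 had 2 peaks in this region, and each other library had 1. Region 1, over exons 14 to 15, overlapped in CPM, at 1.02 and 1.5 in WT and 1.47 and 1.23 in βRapKO. No Abca8a region had a peak in both libraries of 1 genotype and neither of the other.

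Summed over all peaks of a gene, CPM was lower in both βRapKO libraries than in both WT libraries in 8 of the 10 genes, all but Cxcl12 and Gucy1a1. The same held for 35.4% of the 13956 protein-coding genes with a peak in every library. An exact two-sided permutation test gave p = 0.333 for these 8, the smallest it allows with 2 libraries a genotype (0.417 after adjustment over the 10 genes). The sums hold only tags in called peaks. Peak length was also lower in both βRapKO libraries in 6 genes, against 16.7% of those protein-coding genes. In Tgm2 and Itih5 the summed CPM was lower while peak length overlapped. Whether peak length accounts for the lower sums was not tested. Ndrg2 peaks covered 2.42 and 2.39 kb in WT and 1.09 and 1.61 kb in βRapKO, and Igfbp4 peaks 4.24 and 3.99 against 2.94 and 1.94 kb. Tags per kb over the whole gene were lower in both βRapKO libraries in 8 genes, all but Pdgfra and Igfbp4, against 54.6%. For Tgm2, where every library called both regions, CPM per kb was 3.12 and 3.10 in WT and 2.41 and 2.02 in βRapKO.

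**Figure D5:**
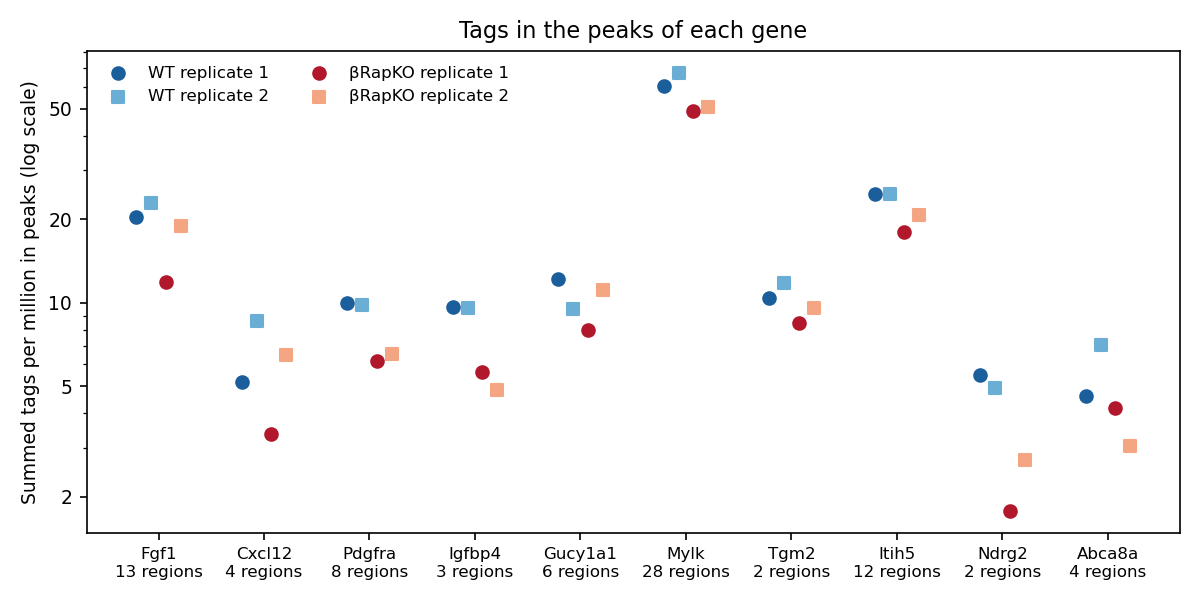
CPM summed over all peaks of each gene (log axis), with 1 point per library and the number of regions below each name. Both βRapKO points lie below both WT points in 8 genes, against 35.4% of protein-coding genes with a peak in every library, and overlap in Cxcl12 and Gucy1a1.

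Relatives of these genes were examined in 8 lists: PDGF and FGF signalling, IGF binding proteins, the CXCL12 axis, contraction and cGMP, transglutaminases, inter-alpha-trypsin inhibitors, the NDRG family and ABCA5 to ABCA9. They hold 87 genes other than the 10, of which 86 had at least 1 region. None of their 379 regions with a peak in every library passed the edgeR test on either scale. Their median log2 ratio was −0.07 in CPM and −0.18 in tags per kb, close to all regions. In CPM 8 (2.11%) were more than 1.5-fold lower, against 1.77% of all regions, and 5 (1.32%) higher, against 1.29%. In tags per kb 18 (4.75%) were more than 1.5-fold lower, against 4.02%, and 0 higher, against 0.12%. Of their 985 regions, 39 (3.96%) were called in WT only, against 4.16%, and 12 (1.22%) in βRapKO only, against 1.58%. Most regions of the PDGF and FGF list belong to Fgfr2, whose annotated gene spans 2.96 Mb, while its principal transcript spans 102 kb and holds 13 of its 335 regions. Without Fgfr2 that list had 65 regions with a peak in every library, 2 lower and 0 higher by more than 1.5-fold.

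Regions past 1.5-fold in CPM are given for at most 3 genes of a list, and none passed the test. Fgfr1, a receptor of Fgf1, had 5.43 and 5.30 CPM in WT and 2.87 and 3.29 in βRapKO at a region in intron 2 (log2 fold change −0.80, adjusted p = 0.432). Its CPM per kb was 2.21 and 2.34 in WT and 2.06 and 2.06 in βRapKO. Fgf9, a related ligand, had 2.66 and 1.69 CPM in WT and 1.20 and 1.54 in βRapKO over exon 2 (log2 fold change −0.64, adjusted p = 0.858). In Fgfr2 the largest difference lay outside the principal transcript, with 4.06 and 5.30 CPM in WT and 1.78 and 2.16 in βRapKO (log2 fold change −1.25, adjusted p = 0.381). At Igf1r, the IGF receptor, a region in intron 2 had 4.38 and 1.53 CPM in WT and 4.69 and 8.23 in βRapKO (log2 fold change 1.15, adjusted p = 0.855), and the region over exons 11 to 13 had 3.87 and 2.23 CPM in WT and 6.43 and 5.93 in βRapKO (log2 fold change 1.03, adjusted p = 0.567), and its tags per kb were lower, 2.18 and 2.49 against 1.87 and 1.70.

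Among genes of contraction, Prkg1, the kinase activated by cGMP, had 2.78 and 1.69 CPM in WT and 1.10 and 1.17 in βRapKO at a region in intron 1 (log2 fold change −0.96, adjusted p = 0.750). Mylk3, the cardiac myosin light chain kinase, had 1.17 and 2.74 CPM in WT and 3.63 and 3.22 in βRapKO in intron 9 (log2 fold change 0.78, adjusted p = 0.858). Itih1, a relative of Itih5, had 2.46 and 3.38 CPM in WT and 1.68 and 2.06 in βRapKO over exons 11 to 12 (log2 fold change −0.65, adjusted p = 0.849). The lists of transglutaminases, the CXCL12 axis, the NDRG family and ABCA5 to ABCA9 had no region past 1.5-fold in CPM.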

How the data were processed

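DNA of freshly isolated islets was captured by an antibody that binds methylated cytosine, and then sequenced. Per the labels and file headers, the authors aligned reads to mm10 with Bowtie2 2.2.5 (mm9 is also listed) and called peaks in each library with MACS (1.4.2 in the headers, 0.14.2 in the labels), at a p cutoff of 1e-05, keeping 1 tag per position and using no control library. The deposited files give each peak's tag count, its score (from −log10 of its p) and its fold enrichment, a ratio to the local background within 10000 bp.

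Here peaks were joined where they overlapped by 1 bp and assigned with GENCODE M21, over gene bodies and 2 kb upstream. Tags were summed per region and divided by the tags left after duplicate removal. The 75052 regions with a peak in every library were tested with edgeR 4.0.16 (quasi-likelihood), on tags and with peak length as offset, and with limma 3.58.1 on log2 fold enrichment, all with Benjamini-Hochberg adjustment. DESeq2 1.42.0, limma on log2(CPM + 0.5), other library sizes, filters, overlaps, windows and left-out libraries were alternatives. The edgeR tests and limma on log2(CPM + 0.5) were checked on simulated counts, and limma on fold enrichment was not. Python 3.11.15 and R 4.3.3 were used.

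The most detailed values are given for the region of each gene with the most tags, regions called in both libraries of 1 genotype alone, regions past 1.5-fold on either scale and regions within 500 bp of the gene start. A few others are named for a contrast between scales or libraries and were chosen after their values were seen. Of the pathway lists, genes with a region past 1.5-fold in CPM are named, at most 3 per list. The members and lists were chosen with earlier results of these data known. The authors' windows of differential methylation were not used here.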

Additional observations from a re-analysis of the deposited data

How the results depend on the processing

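No region of the 10 genes passed in any alternative but 1. Over all regions, the count that passed rose from 0 to 2 with DESeq2 on tags, to 5 with at least 50 tags in every library on tags per kb, and to 0 to 1 on tags per kb and 0 to 149 on fold enrichment when 1 library was left out (23 without WT replicate 1, 23 without βRapKO replicate 1 and 149 without βRapKO replicate 2). With the replicate number as a block, 0 passed on tags, 128 on tags per kb, among them Tgm2 region 2 (1 of the 41, log2 fold change −0.78, adjusted p = 0.0452), and 28 on fold enrichment. In log2 CPM, deviations of same-numbered libraries correlated at 0.0474, so the numbers showed little pairing on that measure. The same check was not made for tags per kb or fold enrichment, so pairing there cannot be judged.

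Scaling by tags in peaks, which moved the median of all regions to 0.10 in tags and −0.0011 in tags per kb, took the median log2 fold change of the 41 regions from −0.10 to 0.0588 in tags and from −0.21 to −0.0429 in tags per kb. In the same setting Tgm2 region 2 turned to 0.0234 in tags, and Fgf1 region 9 (0.14), Cxcl12 region 3 (0.0418), Tgm2 region 1 (0.0639) and Mylk region 8 (0.15) turned positive in tags per kb. Pdgfra region 1 (−0.0191), Itih5 region 9 (−0.0152) and Gucy1a1 region 4 (−0.0004) kept their sign in tags but hardly differed between genotypes. Ndrg2 region 1 (−0.48), Tgm2 region 1 (−0.29) and Gucy1a1 region 1 (−0.22) stayed lower in tags. With TMM, Fgf1 region 9 was at 0.0405 and Mylk region 8 at 0.0464 in tags per kb. In tags, Fgf1 region 9 was at −0.0172 with the tags before duplicate removal and −0.0023 with limma, and Ndrg2 region 1 at 0.24 with the 50% overlap. The cause was not tested beyond the further WT peak given for Ndrg2. With peaks of a score of at least 100, the count called in βRapKO only went from 1 to 0.

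With 1 library left out, direction changed for Cxcl12 region 3 in tags (−0.0656 to 0.25), Fgf1 region 9 in tags (−0.17 to 0.16) and in tags per kb (−0.19 to 0.13), Tgm2 region 2 in tags (−0.45 to 0.12), Mylk region 8 (−0.17 to 0.14) and Itih5 region 4 (−0.38 to 0.0469) in tags per kb and the summed CPM of Gucy1a1 (−0.43 to 0.0423). In all, 10 of 251 values for single regions and genes changed direction under the other alternatives and 10 of 152 with a library left out.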
